A study of Mus musculus with 461 samples.

Results

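Acta2-high and Acta2-low fibroblasts were compared among the 74 mouse cells taken at day 0 of a reprogramming course, out of 461 single cells of the series. Acta2 (alpha smooth muscle actin) TPM, transcripts scaled to a fixed total in each cell, chose the groups, so the members were selected on a measured value. Within each title prefix, b1 or b2, cells above that prefix's median were called Acta2-high and the rest Acta2-low, which gave 37 cells each, 10 of b1 and 27 of b2 on either side. Acta2 itself is therefore left out of all results. All 74 cells came from embryonic fibroblasts of the OG2 transgenic line, in which Oct4 regulatory sequence drives green fluorescent protein, on a mixed 129SVJ, C57B6 and CBA background. Embryonic fibroblasts were kept in DMEM with serum, per the labels' protocols, and the reprogramming cells of later days in iCD1 medium. Single cells were captured on the Fluidigm C1 system, a microfluidic chip that makes cDNA from each cell in its own chamber. Neither group has a genotype or treatment of its own, and the labels do not say whether day 0 cells already carried reprogramming vectors. The labels do not say what the prefixes stand for. The p-values below measure only how far the difference of Acta2-high from Acta2-low cells varied between b1 and b2. That spread may be technical and is shared in part over genes.

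Alpha smooth muscle actin is the actin of vascular smooth muscle, and cultured fibroblasts switch it on when they build stress fibres and pull on their surroundings. Such cells are called myofibroblasts. Stress fibres pair actin filaments with myosin, tropomyosin, calponin and transgelin, and anchor at focal adhesions through integrins. Links are known between tension, transforming growth factor beta, the transcription factor SRF with its MRTF coactivators, and YAP with TEAD factors, which together switch on contractile and matrix genes. Somatic identity genes of this kind are switched off as fibroblasts are reprogrammed.

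At the split, the lowest Acta2-high b1 cell had 586 TPM of Acta2, and the highest Acta2-low b1 cell had 153 TPM. In b2 the corresponding cells had 1135 and 1023 TPM, and 14 b2 cells but 0 b1 cells lay within 1.5-fold of their median. Because each prefix had its own median, 3 Acta2-high b1 cells were under the b2 median, and 11 Acta2-low b2 cells were over the b1 median. Median Acta2 was 1692 and 2103 TPM in Acta2-high b1 and b2 cells, against 47.98 and 278 TPM in Acta2-low cells. Reads per cell were alike, with medians of 2.82 and 3.31 M expected counts in Acta2-high cells and 2.94 and 3.14 M in Acta2-low cells. Acta2 rank hardly followed depth (Spearman rho 0.02 over 20 b1 cells and -0.05 over 54 b2 cells). Genes with counts per cell had higher medians on the Acta2-high side, 9743.5 and 7893 in b1 and b2, against 8923.5 and 7534 in Acta2-low cells. Their rho with Acta2 was 0.10 in b1 and 0.05 in b2. What this adds to the counts of detected cells below was not tested. No 2 cells held identical values.

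Both groups held fibroblasts by their markers, though less uniformly on the low side. The summed TPM of Col1a1, Col1a2, Col3a1, Thy1, Pdgfra and Dcn passed 100 in 10 of 10 and 27 of 27 Acta2-high b1 and b2 cells, against 6 of 10 and 23 of 27 Acta2-low cells. The lowest sum was 686 and 166 TPM in Acta2-high b1 and b2 cells, and 1.02 and 19.3 TPM in Acta2-low cells, so some Acta2-low cells had almost none of these transcripts. A pair of smooth muscle genes was found in few cells or none. Myh11, the smooth muscle myosin heavy chain, reached 1 TPM in 0 of 37 Acta2-high and 0 of 37 Acta2-low cells, which with 0 cells found allows shares of up to 30% of 10 b1 cells and 11.1% of 27 b2 cells in each group. Myocd (myocardin, the SRF coactivator of smooth muscle) reached 1 TPM in 2 Acta2-high b2 cells and in no other day 0 cell. A gene is called detected in a cell from 1 TPM upwards.

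No gene passed the test across all genes. The expected counts of each group were added up within each prefix, and the 4 sums were fitted in edgeR with the prefix as a block. Of 14825 genes tested, 0 (0%) were higher and 0 (0%) were lower at a Benjamini-Hochberg adjusted p under 0.05, and the smallest adjusted p was 0.377. Unadjusted p was under 0.05 for 786 genes (5.3%). DESeq2 on the same sums called 263 genes higher (1.77%) and 195 lower (1.32%), and why the tools differ was not tested. The values below are therefore given as levels and as fold changes of Acta2-high over Acta2-low cells, log2 ± SE, without a call. Both p and SE come from a spread that edgeR shares over genes, not from each gene's own b1 and b2 values alone. Pairs of CPM values give b1 and then b2. As a description chosen after this outcome was known, genes were also counted that were higher, or lower, in Acta2-high cells in b1 and again in b2. Among all genes tested, 26.7% were higher in both prefixes and 25.8% were lower in both, and 7.78% were at least 2-fold higher and 6.64% at least 2-fold lower in both. Among the 6577 genes with a mean of 20 CPM (counts scaled to a common library total) or more, these shares were 27%, 26.8%, 3.24% and 2.65%. The shares over all genes tested are the background for each list count below. Over those 6577 genes the b1 and b2 fold changes correlated weakly (Pearson r = 0.17, Spearman rho = 0.12; genes are not independent replicates).

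Contractile genes went with Acta2 in both prefixes more often than any other list of 15 or more tested genes. Of 24 listed genes 22 were tested; 18 were higher and 1 was lower in Acta2-high cells in both prefixes, and 7 were at least 2-fold higher in both. Over all genes tested these shares were 26.7%, 25.8% and 7.78%. Their median log2 fold change was 0.94, against 0.04 over all genes tested. Tagln (transgelin, ENSMUSG00000032085), which binds and bundles actin filaments, was lowest, median and highest at 417, 1789 and 2676 TPM in Acta2-high b1 cells, against 0.41, 299 and 1358 TPM in Acta2-low b1 cells. In b2 it was at 813, 5685 and 11834 TPM in Acta2-high cells, against 0, 1498 and 4298 TPM in Acta2-low cells. The ranges overlapped, yet no Acta2-low cell of either prefix passed the median of its Acta2-high counterparts, and 7 of 10 and 18 of 27 Acta2-high cells lay above every Acta2-low cell of their prefix. Summed, Tagln was at 1771 and 5808 CPM in Acta2-high b1 and b2 cells, against 429 and 1675 CPM in Acta2-low b1 and b2 cells, a log2 fold change of 1.92 ± 0.17 (edgeR adjusted p = 0.456, unadjusted p = 8e-05).

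Cnn1 (calponin 1, ENSMUSG00000001349), which restrains myosin at the actin filament, was switched on in fewer cells. It reached 1 TPM in 8 of 10 and 20 of 27 Acta2-high cells of b1 and b2, against 4 of 10 and 14 of 27 Acta2-low cells. The median was 58.6 and 109 TPM in Acta2-high b1 and b2 cells, against 0.115 and 1.81 TPM in Acta2-low cells, and the highest cells of the 4 groups had 595, 1581, 126 and 394 TPM in that order. Cells without Cnn1 were thus present on both sides, and its log2 fold change was 2.27 ± 0.31, with 152 and 453 against 28.6 and 103 CPM. Myl9 (ENSMUSG00000067818), the regulatory myosin light chain of smooth muscle and fibroblasts, was detected in 10 of 10 and 27 of 27 Acta2-high cells of b1 and b2, against 5 of 10 and 23 of 27 Acta2-low cells. Its lowest, median and highest levels were 107, 238 and 1178 TPM in Acta2-high b1 cells, against 0, 18.9 and 483 TPM in Acta2-low b1 cells. In b2 they were 2.05, 469.8 and 1652 TPM in Acta2-high cells, against 0, 101 and 789.8 TPM in Acta2-low cells. The groups overlapped in both prefixes, and the log2 fold change was 2.10 ± 0.35.

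**Figure D1:**
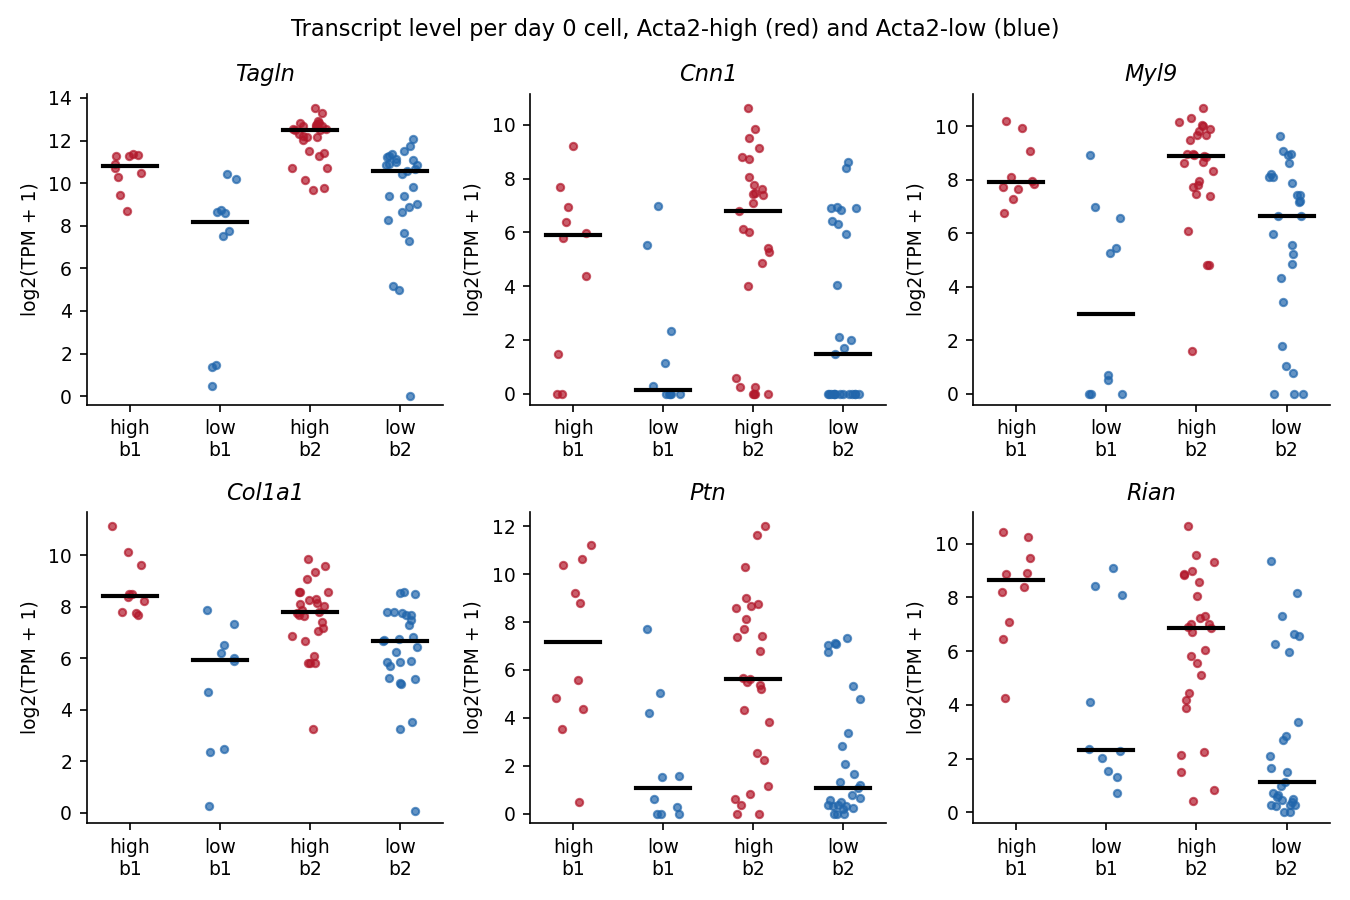
Transcript level of 6 genes in each day 0 cell, as log2(TPM + 1); every point is a cell, red points are Acta2-high and blue points Acta2-low cells of prefix b1 or b2, and black bars are medians. For each of the 6 genes the Acta2-high median lies above the Acta2-low median in both prefixes while the points overlap.

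The broadly expressed stress fibre genes differed by smaller factors. The tropomyosins Tpm1 and Tpm2, which lie along actin filaments, had log2 fold changes of 0.94 ± 0.19 and 0.83 ± 0.30. Tpm1 was summed to 1556 and 3624 CPM in Acta2-high b1 and b2 cells, against 695 and 2192 CPM in Acta2-low b1 and b2 cells. Caldesmon (Cald1), which regulates actomyosin, had a log2 fold change of 0.83 ± 0.21, and calponin 2 (Cnn2), the calponin of nonmuscle cells, one of 0.69 ± 0.20. The Z-disc and stress fibre adaptor Pdlim7 (1.52 ± 0.35), the actin crosslinker filamin A (Flna, 0.95 ± 0.23) and the adhesion protein vinculin (Vcl, 1.06 ± 0.33) were higher in both prefixes too. The list was not uniform. Desmin (Des), the intermediate filament protein of muscle, was the 1 member lower in both, at 53.3 and 55.2 against 80.4 and 114 CPM, and 54% of its counts in Acta2-low b1 cells came from 1 cell. Mylk (myosin light chain kinase) went opposite ways, with log2 fold changes of 1.68 in b1 and -1.76 in b2. The smooth muscle gamma actin Actg2 was found in 3 of 10 and 4 of 27 Acta2-high cells of b1 and b2, against 0 of 10 and 4 of 27 Acta2-low cells, and near-identical actin genes may share reads that the counting divides between them, so actin values are uncertain.

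CArG boxes, the sites that SRF binds, are known in promoters of contractile genes, and the promoters of contractile genes measured here are shown for that reason. CArG boxes (the 10-base pattern read alike on both strands) were searched in the 250 bases upstream of each start in the RefSeq promoter table (GRCm38.p6). They were found for 4 of 20 matched contractile genes (Myl9, Cnn2, Vcl and Ldb3), 2 of 24 matched nonmuscle actin genes (Actg1 and Myl6), 3 of 17 genes of the SRF, MRTF and YAP list (Srf, Fhl1 and Fhl2) and 0 of 21 matrix genes, against 1.624% of 27025 genes in that table. Such a match describes the letters and is not a measured site. The stretches below were picked because they hold the box, which is in capitals. They lie at chr2:156775263-156775352 (plus strand) for Myl9, chr10:79988504-79988593 (plus) for Cnn2, chr14:20929148-20929220 (plus) for Vcl, chr11:120348536-120348625 (minus) for Actg1 and chr10:128493010-128493099 (minus) for Myl6, all upstream of the start. The box ends 152, 47, 218, 81 and 41 bases before the start in that order.
Myl9: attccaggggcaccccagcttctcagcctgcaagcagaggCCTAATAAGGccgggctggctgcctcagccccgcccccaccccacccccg
Cnn2: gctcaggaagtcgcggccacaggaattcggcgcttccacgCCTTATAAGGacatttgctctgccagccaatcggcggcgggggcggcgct
Vcl: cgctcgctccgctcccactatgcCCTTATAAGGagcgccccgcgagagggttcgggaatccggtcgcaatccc
Actg1: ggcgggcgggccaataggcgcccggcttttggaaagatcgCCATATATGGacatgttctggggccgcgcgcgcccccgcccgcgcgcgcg
Myl6: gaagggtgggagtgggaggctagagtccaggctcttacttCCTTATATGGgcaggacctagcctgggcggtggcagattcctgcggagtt

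The nonmuscle actin cytoskeleton showed the same side with smaller differences. Of 25 genes, all tested, 17 were higher and 2 lower in both prefixes, with a median log2 fold change of 0.40, and 0 were at least 2-fold higher in both. Beta actin (Actb, ENSMUSG00000029580) was lowest, median and highest at 19534, 54593 and 79765 TPM in Acta2-high b1 cells, against 2493, 30184 and 65064 TPM in Acta2-low b1 cells. In b2 it was at 6484, 14424 and 24037 TPM in Acta2-high cells, against 3004, 8897 and 17622 TPM in Acta2-low cells. All 74 cells expressed it strongly and the groups overlapped; its log2 fold change was 0.70 ± 0.11. Gamma actin (Actg1) had 0.74 ± 0.14. Thymosin beta 4 (Tmsb4x), which holds actin monomers in reserve, had a log2 fold change of 1.13 ± 0.18, with 1792 and 2575 against 897 and 1076 CPM. The essential myosin light chain gene Myl6 had 0.53 ± 0.20, and cofilin (Cfl1), which severs filaments, was level at -0.01 ± 0.22.

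Matrix genes were on the Acta2-high side nearly as often as contractile genes. Of 32 listed genes 31 were tested; 25 were higher and 3 were lower in both prefixes, 10 were at least 2-fold higher in both, and the median log2 fold change was 1.12. With the 28 members at 20 CPM or more, 23 were higher in both and 9 at least 2-fold. Col1a1 (ENSMUSG00000001506), a chain of type I collagen, was lowest, median and highest at 202, 346 and 2239.6 TPM in Acta2-high b1 cells, against 0.21, 60.9 and 231 TPM in Acta2-low b1 cells. In b2 it was at 8.52, 221 and 919.8 TPM in Acta2-high cells, against 0.05, 100.1 and 377 TPM in Acta2-low cells. No Acta2-low b1 cell and 3 Acta2-low b2 cells passed the Acta2-high median. Its log2 fold change was 1.95 ± 0.44, larger in b1 (2.80) than in b2 (1.11), a difference not tested. The partner chain Col1a2 had 1.72 ± 0.30, with 1752 and 1445 against 372 and 623 CPM. Col1a1 and Col1a2 also lead the fibroblast marker sum above, so that sum and these values are not separate results.

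Further matrix genes, of which Tnc, Fbln2 and Thbs1 were named after their values were seen, are given singly. Periostin (Postn), a matricellular protein, was detected in 9 of 10 and 15 of 27 Acta2-high cells of b1 and b2, against 2 of 10 and 5 of 27 Acta2-low cells, with 477 and 542 against 11.9 and 156 CPM. Tenascin C (Tnc) had a log2 fold change of 2.28 ± 0.34, fibulin 2 (Fbln2) 1.92 ± 0.30, the microfibril protein gene Mfap2 3.02 ± 0.54 and thrombospondin 1 (Thbs1) 2.74 ± 0.80. A single cell held 67% of the Tnc counts in Acta2-high b1 cells. Lysyl oxidase (Lox), which crosslinks collagen and elastin, was detected in 9 of 10 and 14 of 27 Acta2-high cells of b1 and b2, against 1 of 10 and 12 of 27 Acta2-low cells. The abundant matrix genes differed less, with log2 fold changes of 0.69 ± 0.19 for fibronectin (Fn1), 0.64 ± 0.26 for Sparc and 0.59 ± 0.27 for biglycan (Bgn). Elastin (Eln) was lower in both prefixes, at 6.04 and 2.34 against 14.8 and 39.1 CPM, and at least 85% of its counts in every group came from 1 cell.

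**Figure D2:**
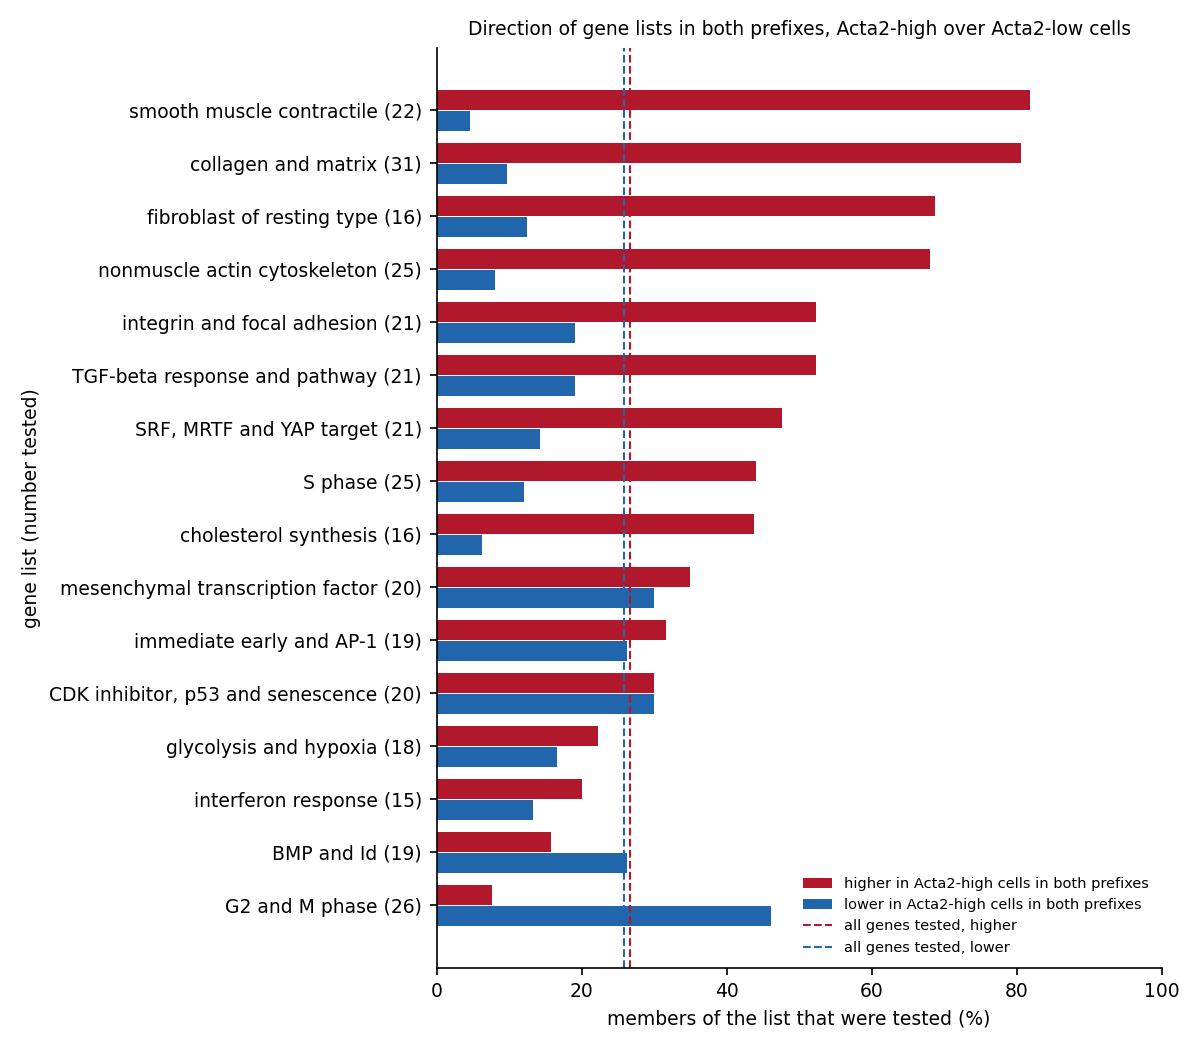
Share of the tested members of each gene list, in percent, that were higher (red) or lower (blue) in Acta2-high than in Acta2-low cells in both prefixes, for lists with 15 or more tested members; dashed lines are the shares among all genes tested, 26.7% and 25.8%. Contractile genes (18 of 22) and matrix genes (25 of 31) lie at the top, and G2 and M phase genes (2 of 26 higher, 12 of 26 lower) at the bottom.

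Response and pathway genes of transforming growth factor beta were less uniform. Of 21 genes of the transforming growth factor beta list, 11 were higher and 4 lower in both prefixes, and 6 were at least 2-fold higher in both. Inhba, which encodes the activin A subunit, was a ligand on the high side, at 192 and 115 CPM in Acta2-high b1 and b2 cells, against 36.9 and 17.9 CPM in Acta2-low b1 and b2 cells (2.53 ± 0.41). A single cell held 96% of its counts in Acta2-low b1 cells. The adaptor Tgfb1i1 (Hic-5), found at focal adhesions, had a log2 fold change of 2.61 ± 0.67. Tgfb1i1 was detected in 10 of 10 and 22 of 27 Acta2-high cells of b1 and b2, against 6 of 10 and 13 of 27 Acta2-low cells. The latent binding protein Ltbp1 had 1.16 ± 0.36, while the feedback inhibitors of the pathway, Skil (0.14 ± 0.25) and Smad7 (-0.55 ± 0.41), stood near or under 0.

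Targets of SRF, MRTF and YAP split as well, with 10 of 21 higher and 3 of 21 lower in both prefixes and a median log2 fold change of 0.35. Ccn2 (connective tissue growth factor), a secreted YAP target, was at 302 and 305 CPM in Acta2-high b1 and b2 cells, against 3.91 and 129.7 CPM in Acta2-low b1 and b2 cells. It was found in 8 of 10 and 25 of 27 Acta2-high cells of b1 and b2, against 4 of 10 and 21 of 27 Acta2-low cells, and 67% of the Acta2-high b1 counts were in 1 cell. Ankrd1 (1.27 ± 0.40), tissue factor (F3, 1.19 ± 0.40) and Ccn1 (0.79 ± 0.31) were higher in both prefixes. Of the factors themselves, Tead1 had a log2 fold change of 0.36 ± 0.28 and Srf one of -0.08 ± 0.46. The Srf value was unstable, with opposite signs in the prefixes. It was 0.41 with thinned cells and 1.00 with the highest cell of each gene left out of each sum. The kinase gene Nuak2, a YAP target, was lower in both prefixes at 1.37 and 12.5 against 28.8 and 58.8 CPM.

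Adhesion genes tended the same way, with 11 of 21 integrin and focal adhesion genes higher and 4 lower in both prefixes. Integrin beta 1 (Itgb1), the common beta chain of collagen and fibronectin receptors, was at 572 and 654 against 176 and 409.9 CPM (1.19 ± 0.33). The adhesion kinase gene Ilk had 0.60 ± 0.23. Integrin alpha V (Itgav) had 0.12 ± 0.37 with opposite signs in the prefixes. The caveolar coat gene Cavin1 was higher in both, but by 1.62 in b1 and 0.14 in b2.

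Those genes of the resting fibroblast list that could be tested did not stand opposite to the contractile genes. Of 22 listed genes 16 were tested. Ly6c1, Dpp4, Dpt, Lum, Clec3b and C3 were not, so nothing is said of them. Of the 16, 11 were higher and 2 lower in Acta2-high cells in both prefixes, with a median log2 fold change of 1.15. Only 9 had a mean of 20 CPM or more, 7 of them higher and 1 lower in both. Pdgfra, the receptor for platelet-derived growth factor, was at 206 and 126 against 89.2 and 40.5 CPM and was detected in 6 of 10 and 17 of 27 Acta2-high cells of b1 and b2, against 4 of 10 and 11 of 27 Acta2-low cells. Thy1, a surface marker of fibroblasts, was found in 4 of 10 and 17 of 27 Acta2-high cells of b1 and b2, against 0 of 10 and 4 of 27 Acta2-low cells; the 0 of 10 allows a share of up to 30%. The secreted inhibitor of angiogenesis Serpinf1 had a log2 fold change of 1.13 ± 0.27, the actin-severing gelsolin (Gsn) 1.18 ± 0.39 and the Wnt antagonist Sfrp1 1.88 ± 0.45. The chemokine Cxcl12 went opposite ways, by -1.22 in b1 and 0.81 in b2.

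The smallest p of the whole fit belonged to a gene outside the lists. Pleiotrophin (Ptn, ENSMUSG00000029838), a secreted heparin-binding growth factor, was lowest, median and highest at 0.4, 244 and 2412 TPM in Acta2-high b1 cells, against 0, 1.21 and 211 TPM in Acta2-low b1 cells. In b2 it was at 0, 48.6 and 4081 TPM in Acta2-high cells, against 0, 1.12 and 159 TPM in Acta2-low cells. Groups overlapped at the low end, since 5 Acta2-high b2 cells were under the Acta2-low median, but 5 of 10 and 11 of 27 Acta2-high cells lay above every Acta2-low cell. Summed, Ptn was at 597 and 492 CPM in Acta2-high b1 and b2 cells, against 25.3 and 28.7 CPM in Acta2-low b1 and b2 cells (log2 fold change 4.33 ± 0.31, edgeR adjusted p = 0.377). It was the 1 gene called by edgeR when each cell was thinned to 300000 counts.

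Rian and Meg3, non-coding RNAs of the imprinted Dlk1-Dio3 locus that are expressed from the maternal allele, were singled out after their values were seen. Rian (ENSMUSG00000097451) was lowest, median and highest at 18.3, 404 and 1384 TPM in Acta2-high b1 cells, against 0.67, 4.01 and 548 TPM in Acta2-low b1 cells. In b2 it was at 0.33, 116 and 1598 TPM in Acta2-high cells, against 0, 1.2 and 649 TPM in Acta2-low cells. The Acta2-low medians were near 0, yet 1 b1 cell and 3 b2 cells of the Acta2-low groups passed the Acta2-high median. The log2 fold changes were 2.62 ± 0.24 for Rian (edgeR adjusted p = 0.456) and 2.31 ± 0.48 for Meg3, whose sums were 205 and 172 against 26.03 and 54.97 CPM. The paternally expressed gene Peg3, from another imprinted locus, had 0.86 ± 0.36, with 1.46 in b1 and 0.26 in b2. Ncam1, a neural and mesenchymal adhesion molecule also named after its values were seen, was at 459 and 304 against 79.7 and 122 CPM (1.92 ± 0.39).

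**Figure D3:**
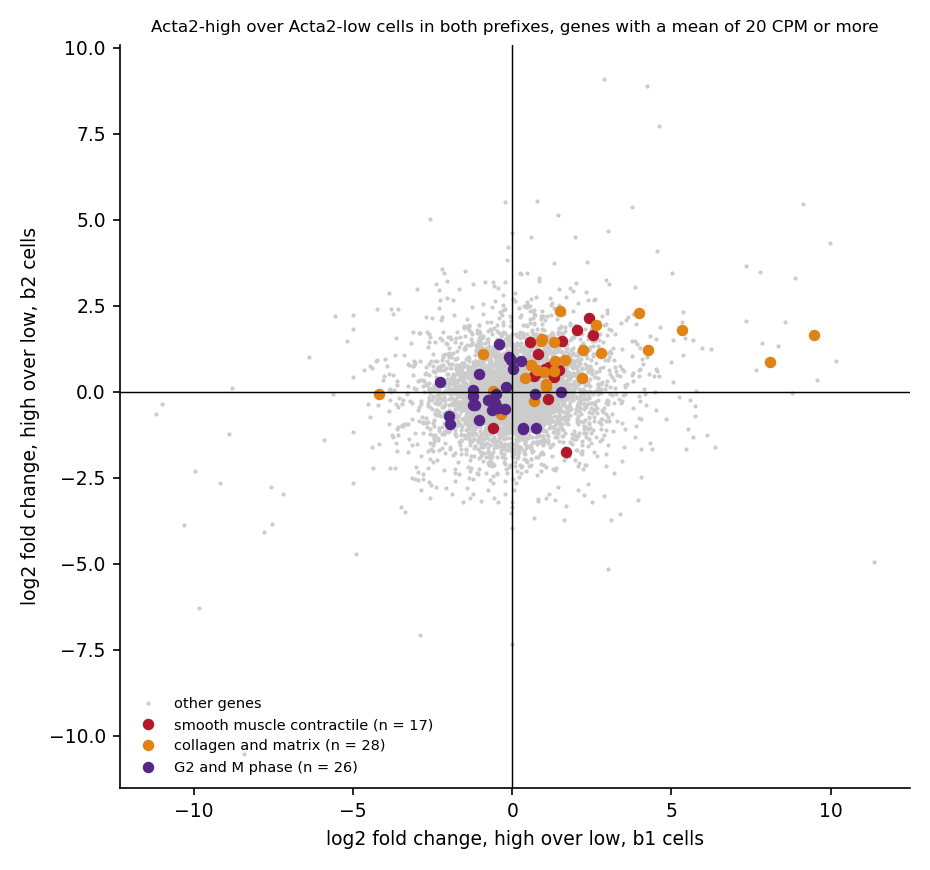
Log2 fold change of Acta2-high over Acta2-low cells in b2 (vertical) against b1 (horizontal) for the 6577 genes with a mean of 20 CPM or more; each point is a gene, with contractile, matrix and G2 and M phase genes coloured. The grey cloud is nearly round (Pearson r = 0.17), and most contractile and matrix genes lie in the upper right.

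Cell cycle genes showed no common side for proliferation. Of 26 G2 and M phase genes 2 were higher and 12 lower in Acta2-high cells in both prefixes, with a median log2 fold change of -0.37, whereas 11 of 25 S phase genes were higher and 3 lower, with a median of 0.30. The proliferation marker Mki67 was found in 6 of 10 and 13 of 27 Acta2-high cells of b1 and b2, against 3 of 10 and 12 of 27 Acta2-low cells, and the mitotic cyclin Ccnb1 in 5 of 10 and 13 of 27 Acta2-high cells of b1 and b2, against 4 of 10 and 16 of 27 Acta2-low cells. Their log2 fold changes were 0.32 ± 0.42 and -0.59 ± 0.26, and those of the chromosome enzyme Top2a, the mitotic kinase Cdk1 and the ubiquitin conjugase Ube2c were 0.43 ± 0.34, -0.26 ± 0.46 and -0.68 ± 0.40. In b1 and b2 taken singly, log2 fold changes were 0.70 and -0.07 for Mki67, -0.05 and 0.91 for Top2a, -1.04 and 0.52 for Cdk1, -0.65 and -0.53 for Ccnb1 and -1.23 and -0.13 for Ube2c. Over b2 cells with neither Mki67 nor Top2a, Ccnb1 and Ube2c had the other sign, at 5.38 and 4.59. Those 11 Acta2-high and 6 Acta2-low cells were chosen by low levels of 2 cycle genes, so signs of cycle genes among them carry little weight. The S phase genes Rrm2 and Mcm4 had 0.35 ± 0.25 and 0.13 ± 0.43, Mcm4 with 0.84 in b1 and -0.58 in b2. Cells with both Mki67 and Top2a under 1 TPM numbered 0 of 10 and 11 of 27 Acta2-high b1 and b2 cells, against 2 of 10 and 6 of 27 Acta2-low cells, so the prefixes differed in direction. The p21 gene Cdkn1a was at 186 and 496 against 459 and 437 CPM. Cdkn1c (p57), an imprinted brake on the cycle, was at 738 and 189 against 2420.2 and 789 CPM, a log2 fold change of -1.89 ± 0.21, but 95% of its counts in Acta2-low b1 cells came from 1 cell with 17617 TPM. Its medians were 281 and 41.2 TPM in Acta2-high b1 and b2 cells, against 62.2 and 67.3 TPM in Acta2-low cells, which do not follow the sums in b1. Cdkn2a, the senescence gene, reached 1 TPM in 1 of 10 and 2 of 27 Acta2-high cells of b1 and b2, against 0 of 10 and 0 of 27 Acta2-low cells; the 0 of 10 and 0 of 27 allow shares of up to 30% and 11.1%.

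Transcripts of the reprogramming factors were present on both sides at day 0. The published 7F cocktail comprises Jdp2, Kdm2b, Map2k6, Glis1, Nanog, Esrrb and Sall4; the labels do not name the factors, and vector and native transcripts cannot be told apart in gene counts. In Acta2-high cells 1 of the 7 was higher and 3 were lower in both prefixes, and the median log2 fold change was -1.30 in b1 and 0.26 in b2. The kinase gene Map2k6 was at 249 and 479 CPM in Acta2-high b1 and b2 cells, against 649 and 651 CPM in Acta2-low b1 and b2 cells, with medians of 225 and 409 TPM against 761 and 883 TPM. Jdp2, an AP-1 repressor, had a log2 fold change of -0.82 ± 0.25, and Map2k6 one of -0.91 ± 0.30; both were lower in each prefix and both had an edgeR adjusted p of 0.907. Nanog was at 236 and 566 against 630.5 and 574 CPM, lower by 1.42 in b1 and level in b2 (-0.02). The factor genes Esrrb (-1.05 in b1, 0.26 in b2) and Sall4 (-1.31, 0.55) had opposite signs in the prefixes, as did Glis1 (-1.82, 0.47), while the histone demethylase gene Kdm2b had 0.48 ± 0.26.

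Acta2 can also be set beside each gene cell by cell. Among 4358 genes with a mean of at least 20 TPM in both prefixes, the 10 most like Acta2 by the smaller of 2 Spearman rho were Tagln (0.81 over 20 b1 cells, 0.82 over 54 b2 cells), Myl9 (0.74, 0.72), Actb, Tpm1, Col1a1, Mfap2, Tmsb4x, Ptn, Cnn2 and Abracl (0.60, 0.51). In both prefixes 32 genes had a rho over 0.4, and 2 had one under -0.4. The genes most unlike Acta2 were Gpx4, which reduces lipid peroxides, the laminin gene Lama5, the ribosomal RNA methyltransferase gene Mettl5, the immunoproteasome gene Psmb10 and the zinc finger factor gene Trps1. Gpx4 had a rho of -0.52 in b1 and -0.44 in b2. It was lowest, median and highest at 521, 1223 and 3830.4 TPM in Acta2-high b1 cells, against 1038, 4335 and 17841 TPM in Acta2-low b1 cells. In b2 it was at 778, 2069.8 and 12409 TPM in Acta2-high cells, against 784, 2956 and 15209 TPM in Acta2-low cells. All 10 Acta2-high b1 cells were under the Acta2-low median. Cells of a prefix may share a source, which the labels do not say, and the TPM of a cell share 1 total. These rho values therefore describe the cells and carry no p. The same Acta2 values split the cells, so a rank by rho is no evidence apart from the fold changes.

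**Figure D4:**
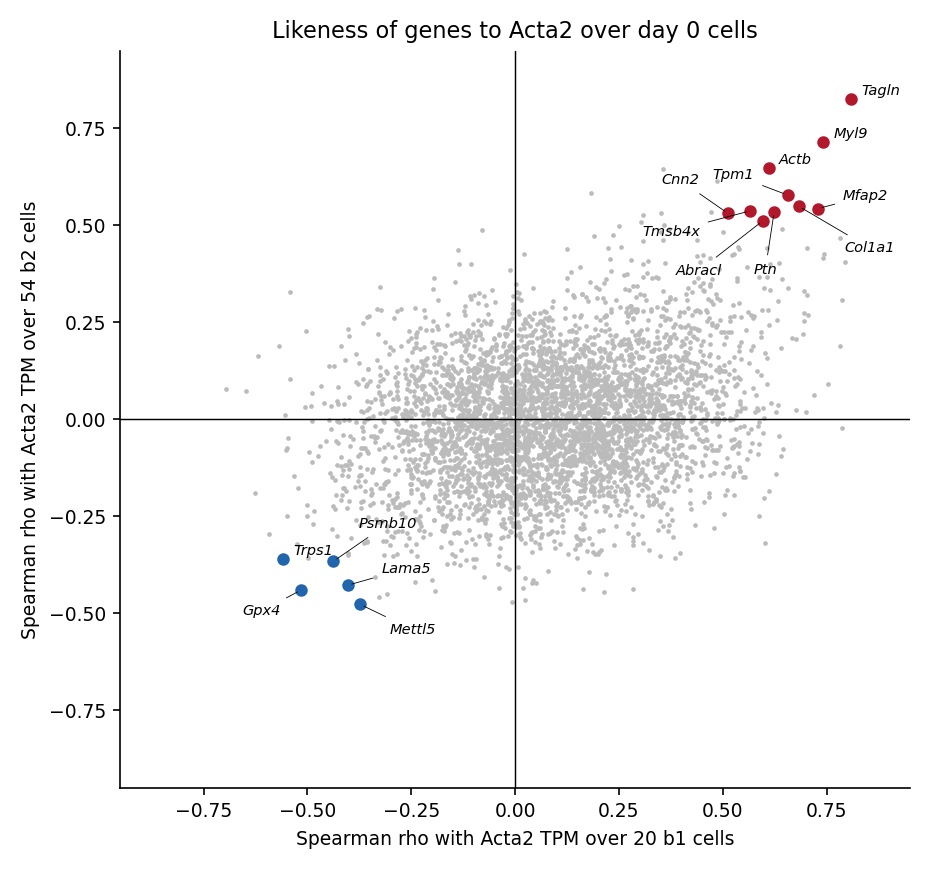
Spearman rho of each gene's TPM with Acta2 TPM over 54 b2 cells (vertical) and 20 b1 cells (horizontal), for 4358 genes; red points are the 10 genes most like Acta2 and blue points the 5 most unlike it. Tagln stands at the upper right, apart from the rest.

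Some genes had higher sums in Acta2-low cells. Fatty acid binding protein 3 (Fabp3) was at 62.9 and 162 against 273 and 563 CPM (-1.96 ± 0.27) and the metal-binding gene Mt1 at 20.8 and 28.5 against 128 and 177 CPM (-2.63 ± 0.40), both picked after their values were seen. Medians went the same way. They were 118 and 132 TPM for Fabp3 in Acta2-high b1 and b2 cells, against 483 and 219 TPM in Acta2-low cells. For Mt1 they were 44.4 and 21.2 TPM in Acta2-high b1 and b2 cells, against 97.7 and 112 TPM in Acta2-low cells. The epithelial keratin Krt8 was found in 0 of 10 and 0 of 27 Acta2-high cells of b1 and b2, against 2 of 10 and 3 of 27 Acta2-low cells, and 99% of its Acta2-low b1 counts were in 1 cell. Epithelial cadherin (Cdh1) was found in 1 of 10 and 4 of 27 Acta2-high cells of b1 and b2, against 3 of 10 and 6 of 27 Acta2-low cells.

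Markers of other cell types moved with the groups only in places, and their part in the results above was not tested. Summed TPM of 13 epithelial markers ran over 0 to 611 TPM and 0 to 1059.8 TPM in Acta2-high b1 and b2 cells, against 0 to 2555 TPM and 0 to 1769.8 TPM in Acta2-low cells, mostly Krt18; 2 and 4 of the 13 were detected on the high side and 7 and 6 on the low side, and Esrp1, Grhl2, Ap1m2 and Elf3 were at 0 in all 74 cells. The epithelial medians were 9.06 and 8.26 TPM in Acta2-high b1 and b2 cells, against 99.6 and 5.34 TPM in Acta2-low cells, and the sum passed 100 TPM in 2 of 10 and 8 of 27 Acta2-high cells, against 5 of 10 and 8 of 27 Acta2-low cells. For 20 skeletal and cardiac muscle genes the ranges were 0.03 to 105 TPM and 0 to 488 TPM, against 0 to 421 TPM and 0 to 1617 TPM, with Myod1, Myog, Myf5 and Pax7 at 0 in every cell. For 15 cartilage and bone genes they were 0 to 259 TPM and 0 to 304 TPM, against 0.07 to 1311 TPM and 0 to 314 TPM, led by Sox9. Medians were 51.1 and 9.89 TPM in Acta2-high b1 and b2 cells, against 92.6 and 14.3 TPM in Acta2-low cells for the muscle list, and 63.5 and 13.4 TPM in Acta2-high b1 and b2 cells, against 113 and 26.3 TPM in Acta2-low cells for the cartilage and bone list. Sums over 100 TPM were found in 1 of 10 and 7 of 27 Acta2-high cells, against 5 of 10 and 8 of 27 Acta2-low cells for muscle, and in 3 of 10 and 3 of 27 Acta2-high cells, against 5 of 10 and 7 of 27 Acta2-low cells for cartilage and bone. In b1 all 3 of these medians were thus lower in Acta2-high cells. In b2 the muscle and the cartilage and bone medians were lower too, while the epithelial median was higher. Pericytes, which also carry Acta2, are marked by Pdgfrb, Mcam and Rgs5. The 13 markers of that list summed to 1.85 to 93.7 TPM and 1.19 to 347 TPM, against 0.02 to 115 TPM and 0 to 219.5 TPM, with Rgs5 found in 1 of 10 and 2 of 27 Acta2-high cells of b1 and b2, against 0 of 10 and 1 of 27 Acta2-low cells. Pdgfrb and Mcam had log2 fold changes of -0.18 ± 0.42 and 0.43 ± 0.56. Cdh5 and Tek of endothelium, Ptprc and Adgre1 of blood, and Sox10 and Foxd3 of neural crest and glia were at 0 in all 74 cells, while other members of these lists were detected. Summed endothelial markers had medians of 27.01 and 16.9 TPM in Acta2-high b1 and b2 cells, against 30.9 and 3.73 TPM, mostly Egfl7. Medians of the summed blood, fat and neural lists were at most 12.8 TPM for fat, 0.51 TPM for blood and 18.7 TPM for neural genes. Single cells were higher. The highest neural sums were 401 and 240 TPM in Acta2-high b1 and b2 cells, against 97.7 and 86.2 TPM in Acta2-low cells. The highest blood sums were 18.5 and 35.2 TPM in Acta2-high b1 and b2 cells, against 232 and 251 TPM in Acta2-low cells. Counted in both prefixes, 4 of 8 tested pericyte genes were higher and 0 lower, 1 of 12 muscle genes was higher and 4 lower, 2 of 7 cartilage and bone genes were higher and 4 lower, and 0 of 5 epithelial genes were higher and 2 lower. For 5 fat genes these counts were 1 and 2, for 5 endothelial genes 2 and 2, for 3 blood genes 0 and 1, and for 5 neural genes 2 and 2. Over all genes tested 26.7% were higher and 25.8% lower, and lists this short cannot be told from those shares.

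Most of the remaining lists lay nearer the background. Cholesterol synthesis leaned to the Acta2-high side, with 7 of 16 genes higher and 1 lower in both prefixes. Its median log2 fold change was 0.47, against 0.04 over all genes tested. The first enzyme on its list, Hmgcs1, had a log2 fold change of 0.29 ± 0.28. Mesenchymal transcription factors (7 of 20 higher, 6 lower), immediate early genes (6 of 19, 5), chemokines (4 of 14, 2), cell cycle inhibitors with p53 and senescence genes (6 of 20, 6), glycolysis (4 of 18, 3), interferon response (3 of 15, 2) and BMP with Id genes (3 of 19, 5) had no strong lean. Examples are the early gene Egr1 (-0.37 ± 0.24), Id3 (0.01 ± 0.26) and the chemokine gene Ccl2, with 2.25 in b1 and -1.10 in b2. Of native pluripotency genes 5 of 16 were tested, 1 higher and 0 lower in both. Of 25 ribosomal protein genes 3 were analysed here, 1 higher and 1 lower in both.

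Cells of later days set the 2 groups in scale. Median Tagln in b2 was 5685 TPM in Acta2-high and 1498 TPM in Acta2-low cells of day 0, 82.4 TPM over 58 cells of day 1 and 0 TPM over 58 cells of day 3. The Acta2-low median of day 0 was thus above those of both later days for this gene. Col1a1 medians in the same order were 221, 100.1, 17.2 and 0.11 TPM. Tpm1 medians were 2612, 1326, 222 and 121 TPM. Ptn departed from this order, with 48.6 TPM in Acta2-high cells, 1.12 TPM in Acta2-low cells and 19.1 TPM at day 1. These are descriptions with 1 prefix per value and no test.

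**Figure D5:**
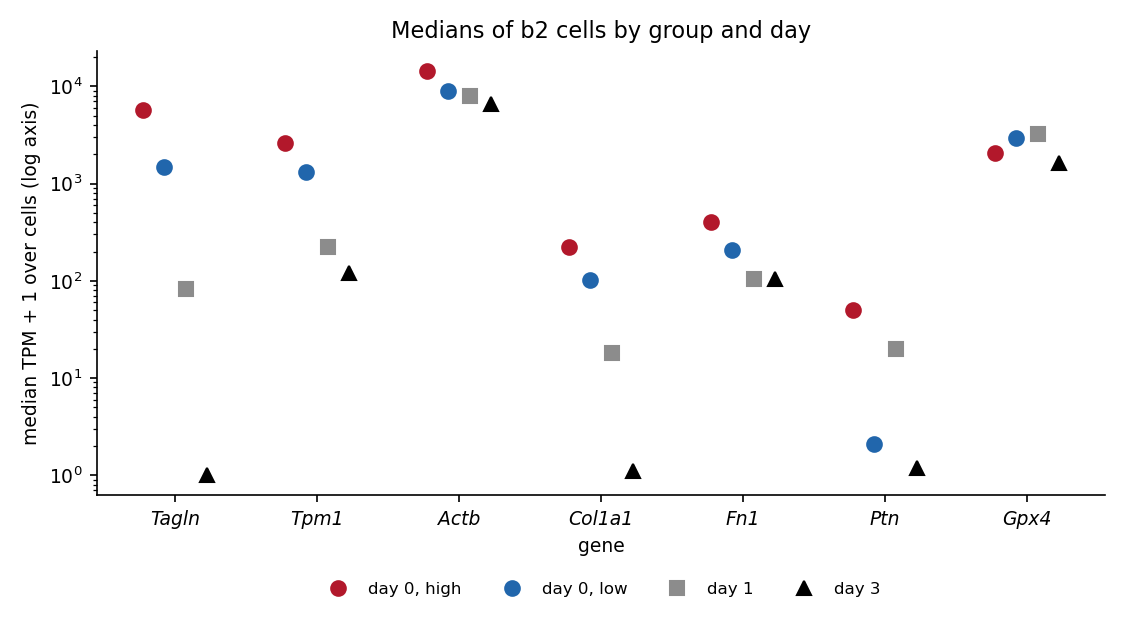
Median TPM + 1 of 7 genes over b2 cells on a logarithmic axis, for Acta2-high cells (red) and Acta2-low cells (blue) of day 0, day 1 cells (grey squares) and day 3 cells (black triangles). For Tagln, Tpm1 and Col1a1 the order is Acta2-high, Acta2-low, day 1, day 3, whereas Ptn at day 1 lies above the Acta2-low cells and Gpx4 is lowest at day 3.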

How the data were processed

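Single-cell RNA-seq of 74 day 0 cells was analysed, with TPM of day 1 and day 3 cells beside it. Per the submitters' processing notes, bcl2fastq and RSEM 1.2.22 were used. Which aligner, build and annotation lay behind them is not given in the sources used here. The authors deposited expected counts per gene and cell, of which 8.30% were not whole, and TPM values per gene and cell, scaled within each cell. Of the deposited columns, 597 were not used. Of 31673 gene identifiers in the count table, 31426 had a symbol.

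Members and gene lists were chosen with earlier results of these data known. TPM of Acta2 set the groups within each title prefix. Expected counts were rounded and summed by group and prefix, since cells are not replicates, which left 2 sums per group. They were fitted in edgeR 4.0.16 (TMM, factors 0.965 to 1.03; filterByExpr; prefix and group in the design; quasi-likelihood test; Benjamini-Hochberg adjustment over all genes tested), and the scripts were tested on simulated data. Alternatives were DESeq2 1.42.0, limma 3.58.1 on log2 of mean TPM plus a pseudocount of 1 or 0.1, other filters, no block, thinned cells, cells left out and each prefix alone. No cells were removed and no doublets were called. Reads carry no molecular identifiers, so the limits that 0 cells allow cover counting error only.

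The naming rule took called genes, of which edgeR gave 0, the 4 most abundant members of each of 28 lists, the 10 genes most and 5 least like Acta2, and a fixed set of contractile, matrix, cell cycle and 7F genes. Some of these are given as counts only. Col1a2, Des, Eln, Fabp3, Fbln2, Flna, Inhba, Ldb3, Meg3, Mt1, Myl6, Mylk, Myocd, Ncam1, Nuak2, Pdlim7, Peg3, Rian, Sfrp1, Srf, Thbs1, Tnc and Vcl were named after their values were seen.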

Additional observations from a re-analysis of the deposited data

Results flagged for a closer look

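For 8 measures (6 genes, total counts and genes with counts), the 10 Acta2-high and the 10 Acta2-low b1 cells were searched for a cell far from the rest, by its gap to the next cell over the group's range. Of these 16 searches 6 found one. Chance gives about 1 in 20 for separate groups of normally distributed values, and TPM of the same cells are neither. Cnn1 reached 595 TPM in an Acta2-high cell, with 204 TPM in the next, and 126 TPM in an Acta2-low cell, with 45.8 TPM in the next. Col1a1 reached 2239.6 TPM in an Acta2-high cell, against 1109 TPM in the next. Myl9 reached 483 TPM in an Acta2-low cell, with 125 TPM in the next. Ptn reached 211 TPM in an Acta2-low cell, with 31.7 TPM in the next. The deepest Acta2-low cell had 4.57 M counts, with 3.35 M in the next.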

How the results depend on the processing

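The absence of calls depended on the tool. DESeq2 called 263 genes higher and 195 lower in Acta2-high cells, with 36 and 11 among list members. limma on log2(mean TPM + 1) called 10 higher and 7 lower (4 and 1 list members), and with a pseudocount of 0.1 it called 2 and 4 (1 and 1). Thinned cells gave 1 gene higher (Ptn) and 0 lower. Both directions had 0 calls in edgeR with no filter on low counts (872 genes at an unadjusted p under 0.05), in edgeR with each gene's highest cell left out (625), and in limma with no filter (636). The causes were not tested. The prefix pairs the groups because the cells of each prefix were split into both. With no replicate block edgeR called 0 higher and 0 lower, with 712 genes at an unadjusted p under 0.05. Leaving out cells with few genes removed no cell and gave no new value. A fit of cells without Mki67 and Top2a could not be made, since 0 Acta2-high b1 cells remained, and only b2 fold changes were had. Counts of calls without b1 or b2 could not be had, as each leaves 2 sums.

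Of 97 genes picked for the text, 69 kept their direction under each alternative that gave them a value, 27 took the other sign under at least 1, and Krt8 was at 0 under 1. Genes that only the naming rule gave were not checked in this way. Some alternatives gave no value for 4 of the 97. With each cell thinned to 300000 counts, the log2 fold change took the other sign for Mylk (0.021), Cfl1 (0.021), Srf (0.41), Cxcl12 (0.022), Pdgfrb (0.18) and Id3 (-0.019). Over b2 cells with neither Mki67 nor Top2a, the log2 fold change took the other sign for Cfl1 (0.14), Smad7 (0.23), Itgav (-0.18), Cxcl12 (1.84), Mki67 (-0.21), Top2a (-0.34), Ccnb1 (5.38), Cdk1 (0.52), Ube2c (4.59), Rrm2 (-1.66), Mcm4 (-1.63), Krt18 (2.32), Cdh1 (1.01), Mcam (-2.29), Rgs5 (-3.52) and Trps1 (2.79). Mki67 and Top2a were under 1 TPM in those b2 cells by selection, so their signs there have no meaning. Only 11 Acta2-high and 6 Acta2-low cells stand behind the other values. With the highest cell of each gene left out of each sum, the log2 fold change took the other sign for Srf (1.00), Top2a (-0.20) and Id3 (-0.008). By limma on log2(mean TPM + 0.1), the log2 fold change took the other sign for Mylk (0.042), Cfl1 (0.089), Srf (0.22), Cxcl12 (0.015), Pdgfrb (0.10) and Id3 (-0.07). By limma on log2(mean TPM + 1), the log2 fold change took the other sign for Mylk (0.008), Cfl1 (0.089), Srf (0.19), Cxcl12 (0.012), Pdgfrb (0.10) and Id3 (-0.07). By the same test with no filter, the log2 fold change took the other sign for Mylk (0.008), Cfl1 (0.089), Srf (0.19), Cxcl12 (0.012), Pdgfrb (0.10) and Id3 (-0.07). With no filter on low counts in edgeR, the log2 fold change took the other sign for Cfl1 (0.002). With no replicate block, the log2 fold change took the other sign for Ccl2 (-0.85). Leaving out b1 or b2, fold changes, lowest to highest, spanned 0 for Ccl2 (-1.10 to 2.25), Cdk1 (-1.04 to 0.52), Cdkn1a (-1.30 to 0.18), Cfl1 (-0.29 to 0.27), Cxcl12 (-1.22 to 0.81), Esrrb (-1.05 to 0.26), Glis1 (-1.82 to 0.47), Hmgcs1 (-0.14 to 0.73), Id3 (-0.39 to 0.41), Itgav (-0.46 to 0.70), Krt18 (-1.34 to 0.26), Mcm4 (-0.58 to 0.84), Mki67 (-0.074 to 0.70), Mylk (-1.76 to 1.68), Pdgfrb (-0.51 to 0.14), Rgs5 (-2.04 to 8.76), Sall4 (-1.30 to 0.55), Skil (-0.068 to 0.35), Srf (-0.30 to 0.14) and Top2a (-0.047 to 0.91). Fitted values for Rgs5 depend on the prior count, since its Acta2-low b1 cells were at 0. The remaining fold changes of those genes had the sign given in the report. Krt8 had a log2 fold change of 0 over b2 cells with neither Mki67 nor Top2a. Only 2 sums a group and 1 residual degree of freedom of the gene itself stand behind each edgeR p. The main fit adds 4.2 degrees of freedom from the spread shared over genes.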
